A study of Mus musculus with 2 samples.

Results

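The channels through which myeloid cells move water, cations and osmolytes were followed on the arrays of tumour-infiltrating M-MDSCs from mice on a normal-salt diet (NSD) or a high-salt diet (HSD). The group was a list of 10 genes: the water channels Aqp1, Aqp3 and Aqp9, the TRP cation channels Trpv2, Trpv4, Trpm2 and Trpm7, the mechanically gated channel Piezo1, and Lrrc8a and Lrrc8d, subunits of the volume-regulated anion channel. Its probes were all non-control probes that carry a RefSeq transcript of one of these genes, which gave 12 probes out of 39413 and all 10 genes out of 20653 genes that could be named. Trpv4 and Lrrc8a had 2 probes each. Each of these probes had 1 spot on each array, and no spot was flagged.

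When the fluid outside a cell becomes hypertonic, water leaves through aquaporins and the cell shrinks, and swelling opens the volume-regulated anion channel, a hexamer of LRRC8 proteins that releases chloride and organic osmolytes. Several TRP channels and PIEZO1 let calcium in when the membrane is stretched, heated or exposed to oxidants, and macrophages and neutrophils use these signals in migration and phagocytosis. The transcripts were measured in young adult female BABL/c mice that had been injected with 1000000 4T1 cells, a mouse mammary carcinoma line, into the left armpit and were then fed for 16 days. The NSD held 0.4% NaCl in the chow and came with tap water, and the HSD held 4% NaCl in the chow with 1% NaCl in the water. M-MDSCs (CD11b+Ly6-C+ cells) were taken from the tumours with magnetic beads, the cells of a diet group were mixed in equal numbers, and 1 array was run for each pool.

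With 1 array for each diet no spread between mice could be computed and no test was run, so each difference compares 2 pools and may come from anything in which they differed. Fewer cells of a type and less RNA per cell cannot be told apart in such pools. The only errors in the data were those within an array. The extraction software gave each spot a signal error, printed below after ±, and these were carried into the error of the log2 fold change (HSD minus NSD, after each array was divided by its 75th percentile, 252 intensity units for NSD and 233 for HSD). Itgam, which encodes CD11b, had signals of 31564 and 31043 in the NSD and HSD groups, and Ly6c1 of 51811 and 48478. All 10 neutrophil markers with a named probe, among them S100a8, Camp and Csf3r, were also well above background on both arrays. Their summed signal was 1345 (NSD) and 1407 (HSD) times the array's 75th percentile. The 8 usable monocyte markers, which include Itgam and Ly6c1, summed to 586 and 655 times. Neutrophil transcripts were thus bright in both pools. Ly6g and Ly6c2 were not analysed here because no probe was named for them.

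With the brightest probe taken for each gene, 4 of the 10 channel genes were lower by 1.5-fold or more on the HSD array and 0 were at least 1.5-fold higher. The background was 10.3% lower and 9.86% higher by this measure, or 20.2% past 1.5-fold either way, among 16316 genes that had a usable probe. The 4 lower genes were Aqp1, Trpv4, Aqp3 and Trpm2. The median log2 fold change was −0.16 over the 10 genes and 0.045 over all genes, with 8 channel genes below 0 and 2 above it. The list was made with earlier results of these data known, those of Aqp1 and Trpv4 among them. The counts of lower genes and probes are therefore no independent support. Counted by probe, 5 of 12 were at least 1.5-fold lower, against 8.92% of all probes, and 0 were at least 1.5-fold higher, against 10.2%, with 19.2% of all probes past 1.5-fold in one direction or the other.

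**Figure D1:**
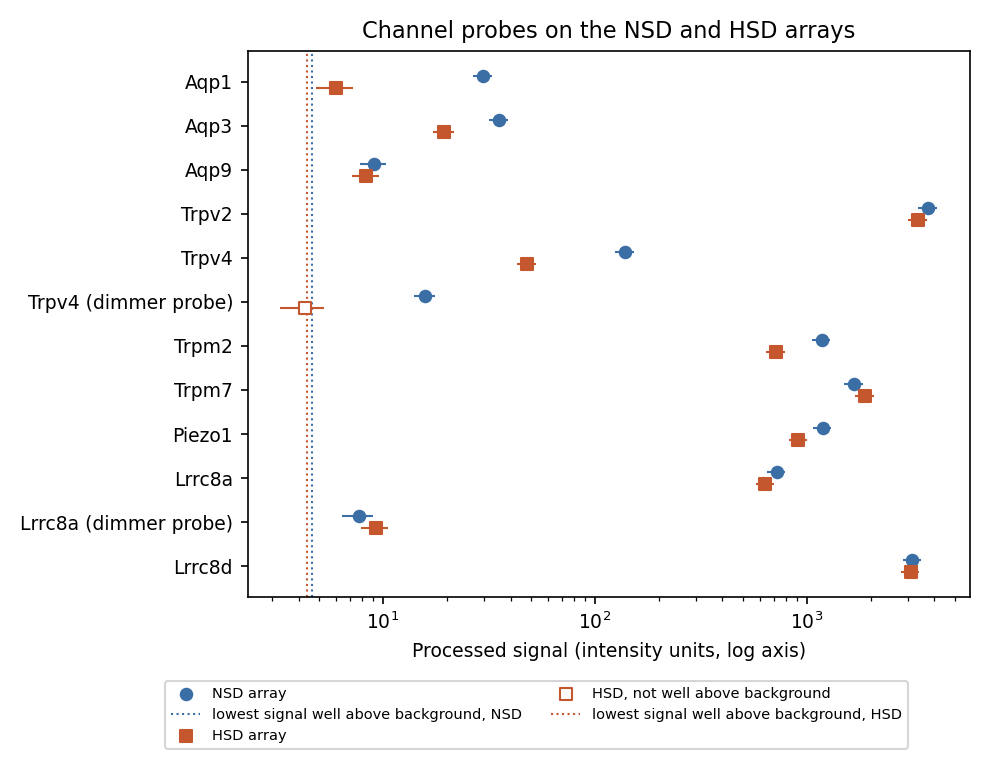
Processed signal (intensity units, log axis) of the 12 probes of the channel genes on the NSD array (circles) and the HSD array (squares), with bars for the signal error given by the extraction software. The open square is below the software's detection call, and dotted lines mark the lowest detected signal of each array. Signals are shown before division by the 75th percentile, 252 for NSD and 233 for HSD, so the brightness of the whole array is included. The signals of Aqp1, Aqp3, both Trpv4 probes and Trpm2 lie to the left on the HSD array, with bars that do not meet. Piezo1 does so too, but its log2 fold change after scaling was −0.27 ± 0.20, within 1.5-fold.

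Of the 3 water channel genes, Aqp1 and Aqp3 were lower by 1.5-fold or more and Aqp9 was near 0. Aqp1, a water channel best known from red blood cells, capillary endothelium and kidney, gave a signal of 29.6 ± 3.15 with NSD and 6.00 ± 1.19 with HSD, a log2 fold change of −2.19 ± 0.32, or 4.57-fold lower. The HSD signal was close to the lowest signal called well above background on that array, 4.39 intensity units. Before background correction the spot had a median brightness of 46.5 over a local background of 17 in the NSD group, and of 23 over 15 in the HSD group. Of all genes, 0.76% had a log2 fold change as low as this. The size of the difference depended on how the background was handled. With the normexp method of limma plus an offset of 50, which exceeds both signals, the log2 fold change was −0.31, below 1.5-fold, and with normexp and no offset it was −1.23.

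Aqp3, an aquaglyceroporin that also carries glycerol and hydrogen peroxide, gave a signal of 35.2 ± 3.69 with NSD and 19.4 ± 2.25 with HSD. Its log2 fold change was −0.74 ± 0.23, or 1.68-fold lower, and −0.22 with normexp and an offset of 50. Aqp9, an aquaglyceroporin of leukocytes and hepatocytes, had signals of 9.08 ± 1.29 and 8.35 ± 1.25. Its log2 fold change was −0.0064 ± 0.30, so at these low signals a change smaller than this error could not have been seen. All 3 water channel genes were dim. Repeat spots of a probe on one array were 1.5-fold or further apart for 14.9% of pairs below 16.6 intensity units and for 3.32% of pairs between 16.6 and 49.4, the ranges that hold the water channel signals.

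Among the TRP channels, Trpv4 was the lowest. TRPV4 is a calcium-permeable channel opened by hypotonic swelling, warmth and lipid mediators. Its brighter probe gave a signal of 138.9 ± 13.9 with NSD and 47.9 ± 4.90 with HSD, a log2 fold change of −1.42 ± 0.21, or 2.68-fold lower. The other probe had a signal of 15.8 ± 1.83 with NSD and 4.27 ± 0.989 with HSD, below the detection call, and so was lower by at least 3.32-fold. Both probes of Trpv4 therefore had the same direction, and the brighter one was past 1.5-fold under each alternative run on it, with values from −1.46 to −0.87. The median over both probes was −1.58. Of all genes, 2.11% were as low.

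The promoters of Aqp1 and Trpv4, the channel genes more than 2-fold lower in the HSD group, are shown because NFAT5, the transcription factor of the hypertonic response, reads sites built on the letters GGAAA. The sequences are those of RefSeq for GRCm38.p6, from the C57BL/6J strain, in the direction of the gene and running from 250 bases before the start site to 50 after it. They lie at chr6:55336049-55336348 on the + strand for Aqp1 and at chr5:114658372-114658671 on the - strand for Trpv4. Capitals mark GGAAA or its reverse complement TTTCC, letters that also contain GGAA, the core of ETS factor sites.
Aqp1: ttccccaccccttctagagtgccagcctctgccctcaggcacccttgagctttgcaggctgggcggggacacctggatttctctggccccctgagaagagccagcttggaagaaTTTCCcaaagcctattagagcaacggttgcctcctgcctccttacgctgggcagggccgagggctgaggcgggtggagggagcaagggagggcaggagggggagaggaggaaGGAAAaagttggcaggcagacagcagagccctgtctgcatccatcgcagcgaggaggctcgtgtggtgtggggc
Trpv4: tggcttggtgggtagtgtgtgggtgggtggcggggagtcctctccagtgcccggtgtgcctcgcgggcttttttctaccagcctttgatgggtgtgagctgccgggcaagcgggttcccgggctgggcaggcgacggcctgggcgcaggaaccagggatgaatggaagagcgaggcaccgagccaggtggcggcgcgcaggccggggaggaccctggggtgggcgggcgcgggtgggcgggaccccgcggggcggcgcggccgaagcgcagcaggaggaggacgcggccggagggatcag
The Aqp1 window held 2 matches, which begin at positions −136 and −24 from the start site, and the Trpv4 window held 0. Among all 32851 promoter windows in the table, 61.3% held the motif, as did 7 of the 14 windows of the channel genes, which belong to 6 of the 10 genes. The windows of Aqp1 and Trpv4 had 62.7% and 73.0% G and C, against a median of 52.7%. A match of these letters does not show a binding site, and the arrays did not measure binding.

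Trpm2, a calcium channel of phagocytes opened by ADP-ribose and oxidants, gave a signal of 1175 ± 118 with NSD and 715 ± 71.5 with HSD. Its log2 fold change was −0.60 ± 0.20, or 1.52-fold lower, just past 1.5-fold. With normexp it was −0.50 with the offset and −0.51 without it, below 1.5-fold. Of all genes, 9.84% were as low. The Trpm2 signals lay in a range where 0.45% to 0.56% of same-probe spot pairs differed by 1.5-fold or more.

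The other two TRP channels were near 0 or above it. Trpv2, a channel of macrophages that takes part in phagocytosis, had signals of 3737 ± 374 and 3347 ± 335 with NSD and HSD and its log2 fold change was −0.045 ± 0.20. Trpm7, a magnesium- and calcium-permeable channel fused to a kinase, had signals of 1665 ± 166.5 and 1879.7 ± 188. Its log2 fold change of 0.29 ± 0.20, or 1.22-fold higher, was the highest of the 10 genes, and 26.3% of all genes were as high. Both genes stayed within 1.5-fold under each alternative run, from −0.14 to 0.021 for Trpv2 and from 0.21 to 0.33 for Trpm7. The difference between Trpm7 and Trpv4 or Trpm2 was not tested.

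Piezo1, which encodes a stretch-gated cation channel, gave a signal of 1187 ± 119 with NSD and 912 ± 91.2 with HSD. The log2 fold change was −0.27 ± 0.20, or 1.20-fold lower, and lay between −0.34 and −0.26 under the alternatives. An annotated protein-coding gene, Ctu2, overlaps Piezo1 in RefSeq, and the sources used here do not give the position of the probe.

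Subunits of the volume-regulated anion channel were near 0. Lrrc8a, the subunit without which the channel does not work, had signals of 719.9 ± 72.0 and 637 ± 63.8 with its brighter probe, a log2 fold change of −0.061 ± 0.20. Its second probe had signals of 7.72 ± 1.28 and 9.23 ± 1.34 and a log2 fold change of 0.37 ± 0.32, so the probes lay on opposite sides of 0, both within 1.5-fold. Lrrc8d, which tunes the channel towards uncharged osmolytes such as taurine, had signals of 3151 ± 315 and 3092 ± 309. Its log2 fold change was 0.087 ± 0.20, and between −0.025 and 0.093 under the alternatives, so its sign was not settled.

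**Figure D2:**
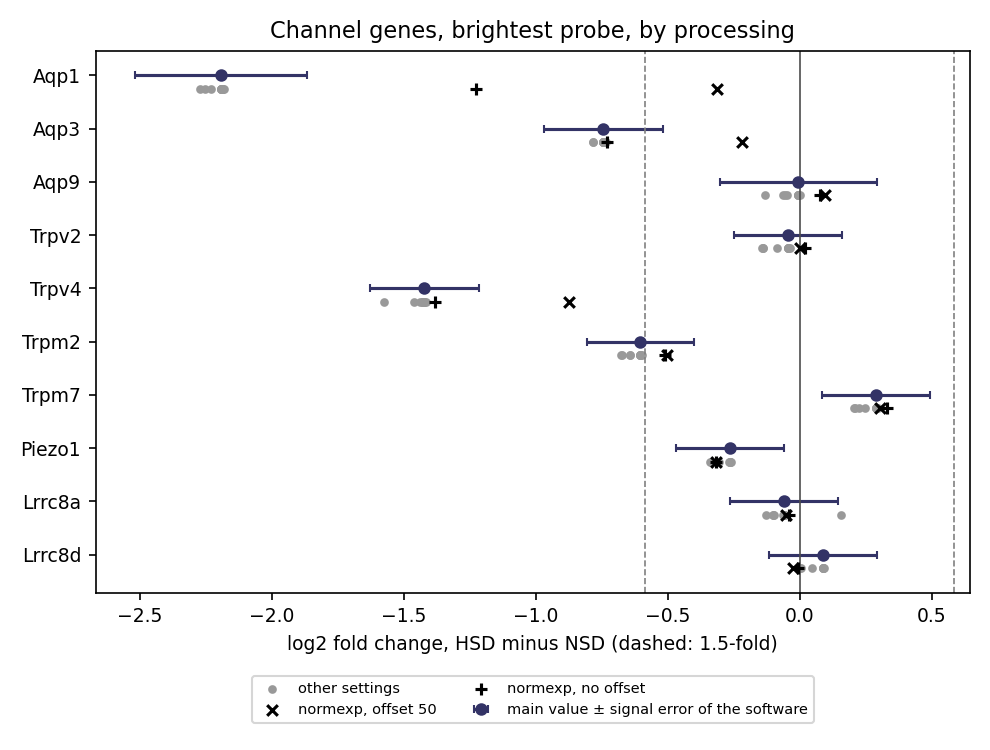
Log2 fold change (HSD minus NSD) of the brightest probe of each channel gene, with bars for the error computed from the software's signal errors. Grey points and the crosses below each value are the alternatives, one of which takes the median over both probes of Trpv4 and of Lrrc8a, and dashed lines mark 1.5-fold; Aqp1 moved from −2.19 to −0.31 with the normexp offset of 50, while Trpv4 stayed beyond 1.5-fold.

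The relatives of these channels were read from a list of 65 other genes of channels and volume control, of which 63 had a named probe and 50 a usable one. At least 1.5-fold differences were seen for 4 of the 50, 2 higher and 2 lower in the HSD group, against 20.2% of all genes. Of the 50, 25 lay on each side of 0, with a median log2 fold change of 0.016. By the brightest probe, the 6 other aquaporin genes detected on both arrays lay between −0.46 and 0.55, and the 12 other TRP channel genes detected on both between −0.52 and 0.54. Aqp5, Trpc4 and Trpm6 were detected on one array alone and had bounds under 1.5-fold, so larger differences are possible for them. Dimmer probes of some relatives, picked out after their values were seen, went past 1.5-fold where the brightest did not. Aqp4, a water channel of astrocytes, had signals of 99.1 and 90.6 with its brighter probe and of 32.4 and 6.94 with the other, a log2 fold change of −2.11. Aqp11 had 59.6 and 58.4 with the brighter probe and 25.6 and 8.62 with the other, a log2 fold change of −1.46. Pacc1, a proton-activated chloride channel, had 78.6 and 29.5 with its dimmer probe, a log2 fold change of −1.30. The probes of Aqp4, Aqp11 and Pacc1 therefore disagreed. Another 9 TRP channel genes were not well above background on either array. The 5 usable kinases of the WNK and SPAK/OSR1 pathway, which set ion transport during changes of volume, lay between −0.19 and 0.18.

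Lrrc8c, another partner subunit of Lrrc8a, was higher in the HSD group, with signals of 42.8 (NSD) and 89.7 (HSD). Its log2 fold change was 1.18, or 2.27-fold higher, and 0.59 with normexp and an offset of 50, still past 1.5-fold. The remaining subunits were Lrrc8b and Lrrc8e. Lrrc8b had signals of 7.10 and 9.03 and a log2 fold change of 0.46. Lrrc8e had signals of 3825 and 3509.9 with its brighter probe, a log2 fold change of −0.0096. Its other probe read 1.75 (NSD) and 2.90 (HSD), both below the detection call, so the probes of Lrrc8e disagreed on its level. Of the 5 LRRC8 genes, 1 was past 1.5-fold, against 20.2% of all genes. Kcnn4, a calcium-activated potassium channel that carries potassium out during volume decrease, had signals of 107 and 58.1, or 1.71-fold lower, with a log2 fold change of −0.77, and −0.45 with normexp and an offset of 50. Ttyh2, a gene of the tweety family, had signals of 296 and 136 with its brighter probe and was 2.00-fold lower. Its other probe was at least 1.22-fold higher, below the detection call with NSD, so the probes of Ttyh2 disagreed, and their median was −0.36. Piezo2, the stretch channel of touch neurons, had a signal of 2.57, not well above background, with NSD and 11.7 with HSD, a difference of at least 2.76-fold. Its 2 other probes were not well above background on either array, and with normexp its log2 fold change was 0.11.

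**Figure D3:**
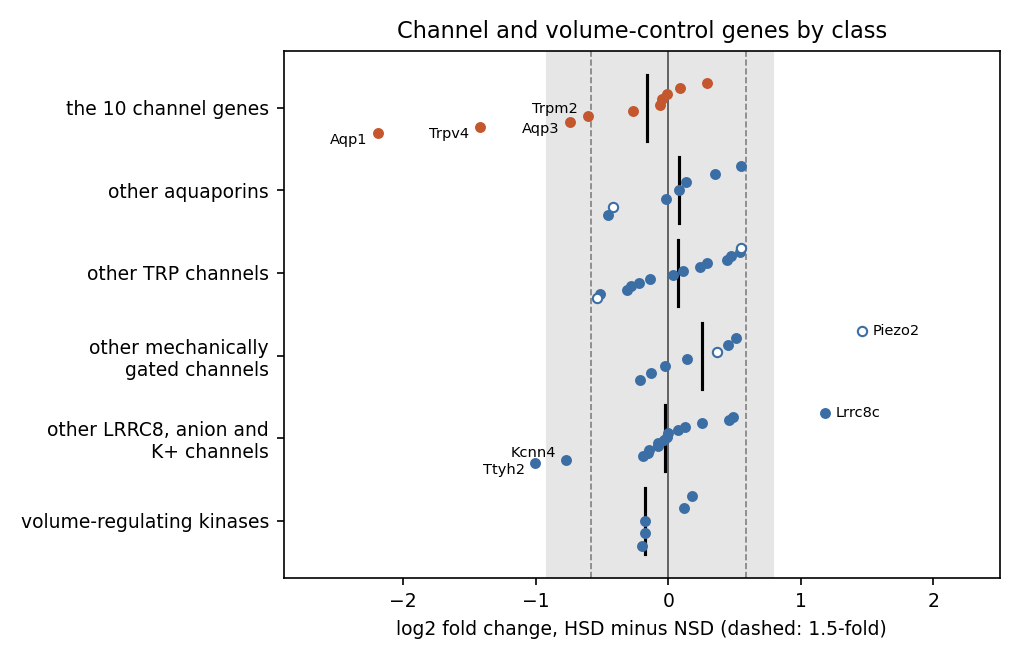
Log2 fold change (HSD minus NSD) of each usable gene by class, with black bars for the median and open symbols for bounds, for genes detected on one array alone. The shaded band holds the middle 90% of all genes, from −0.92 to 0.79; Aqp1 and Trpv4 lie beyond it on the low side, as does Ttyh2, and Lrrc8c and Piezo2 on the high side.

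Cell types that are known to carry Aqp1 were looked for on the same arrays. Of 11 endothelial markers 9 were usable, the 7 detected on both arrays lay between −0.30 and 0.32, and the summed signal of the 9 was 3.78 times the array's 75th percentile in the NSD group and 4.38 times in the HSD group. Pecam1 had signals of 90.8 and 99.1, and Cdh5 was at 5.31 with NSD and below the detection call with HSD. Of 10 erythroid markers 6 were usable, with a median of −0.19 and 1 at least 1.5-fold lower (10.3% of all genes were), Hbb-bs, at 212 and 124. Their summed signal was 112 and 106 times the 75th percentile, and Alas2 had signals of 603 and 450.5. No member of either list that was detected on both arrays was as low as Aqp1, and their part in its value was not tested.

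Macrophage markers were lower along with Aqp1 and Trpv4. The counts of macrophage, monocyte and fibroblast markers stand beside 10.3% of all genes lower and 9.86% higher by 1.5-fold or more. Of 8 macrophage markers 7 were usable, 5 were lower with HSD by 1.5-fold or more and 0 at least 1.5-fold higher. Their median log2 fold change was −1.36, which is the bound of C1qa, and their summed signal was 56.3 and 37.3 times the 75th percentile. Mrc1, the mannose receptor, had signals of 134 and 5.49, and Mertk, a receptor for apoptotic cells, of 95.9 and 15.4. C1qa was below the detection call with HSD, C1qb had a log2 fold change of 0.33, and Adgre1, a surface marker of mature macrophages, one of −0.55. Among monocyte markers 2 were at least 1.5-fold lower and 2 at least 1.5-fold higher, with Ccr2 at −0.78 and Fcgr1 at −3.68, and Cd14 at 0.82 and Chil3 at 0.65. Of 5 usable fibroblast markers of 7, 3 were at least 1.5-fold lower, with a summed signal of 0.789 and 0.549 times the 75th percentile, and Lum and Pdgfra were detected on neither array. The part of these cells in the lower values of the channels was not tested.

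The remaining markers give the other cells that the pools could hold. Their counts stand beside 10.3% of all genes lower and 9.86% higher by 1.5-fold or more. Of the 10 usable neutrophil markers 1 was at least 1.5-fold lower, Mpo, and 0 were higher, with a median of 0.074. Aqp9, a channel of neutrophils, was also near 0, but at dim signals of 9.08 and 8.35. S100a8, by contrast, had signals of 57914 and 56478, and the relation of Aqp9 to these markers was not tested. Epcam and Krt8, epithelial markers of carcinoma cells, had low signals of 14.5 and 21.8, and of 8.68 and 12.2, and 3 of the 7 usable epithelial markers were at least 1.5-fold higher. The adipocyte markers disagreed, with Fabp4, also a macrophage gene, at 543 and 69.6, and Adipoq not well above background with NSD and at 29.4 with HSD. Of the 8 usable dendritic cell markers 2 were higher and 2 lower, of the 6 usable T and NK cell markers 1 was lower, and the 5 B cell markers lay between 0.30 and 0.55.

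**Figure D4:**
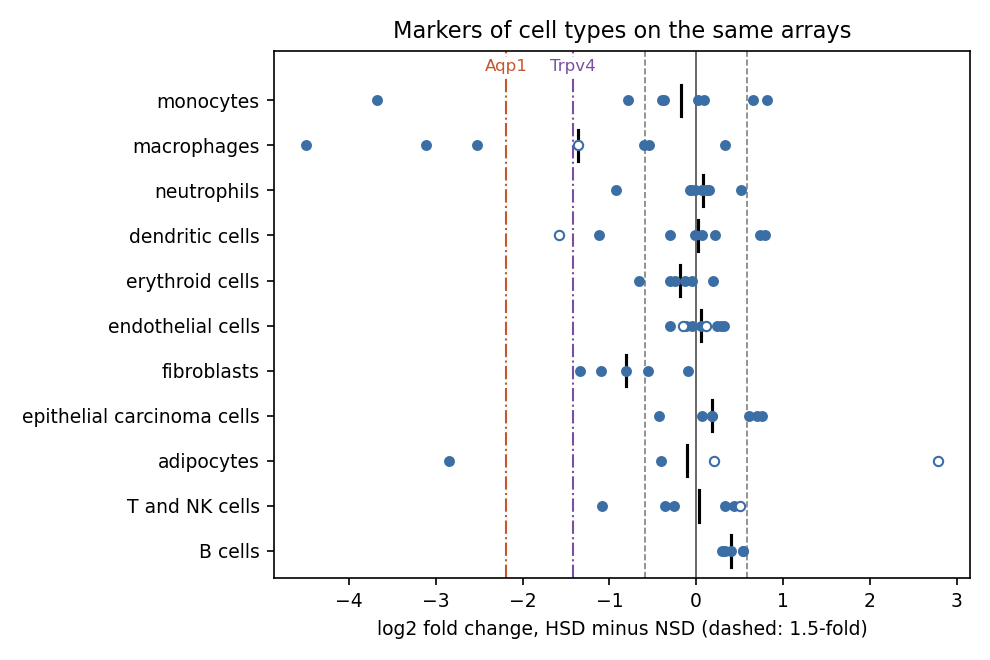
Log2 fold change (HSD minus NSD) of the usable markers of 11 cell types, with black bars for the median of each list and open symbols for bounds. Vertical lines show Aqp1 and Trpv4, and dashed lines 1.5-fold. On the low side, 5 of 7 macrophage markers and 1 of 6 erythroid markers lie past 1.5-fold, against 10.3% of all genes. Endothelial markers detected on both arrays stay within 1.5-fold.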

How the data were processed

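RNA of M-MDSCs pooled by diet was hybridised to 1 single-colour (Cy3) Agilent mouse array per diet. The authors deposited the scanner output, in which the processed signal and its error are intensity values from Feature Extraction 11.0.1.1, after its subtraction of background and spatial trend, with no normalization between arrays, and the median intensity inside each spot and around it. The authors also deposited normalized log2 values made with GeneSpring, whose method is not given in the sources used here. Their medians are 4.612 and 4.611, they lie at a floor of 2.323 and 2.322 for 27.9% and 27.5% of probes, and they correlate with the log2 signal across probes, so scale and direction are settled and the centring method is not. They served as an alternative.

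Control spots and outlier spots were left out, the spots of a probe averaged on the log2 scale, and the 75th percentile of all non-control probes subtracted. The software called 71.9% (NSD) and 72.4% (HSD) of probes well above background, and 0 spots were saturated. A probe was usable when well above background on at least 1 array. Where it was dim on 1 array, the fold change became a bound, with the dim side set to its own signal or, if larger, to the array's dimmest detected signal, 4.61 (NSD) or 4.39 (HSD) intensity units. Precision is limited by there being 1 array per diet. Probes were named by RefSeq transcript (GRCm38.p6 annotation), which matched 27223 probes (69.1%), and the array design was annotated on another assembly. A gene was represented by its brightest usable probe. The genes named were the 10 channel genes, those of the list of relatives past 1.5-fold, and defining markers of the cell types, and a few more chosen as examples with their values known. The channel genes and all lists were chosen with earlier results of these data known. No gene was named for a likeness to a channel gene, since 2 arrays give 1 difference per gene.

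The error of a log2 fold change was the root of the summed squares of the 2 relative signal errors, divided by the natural log of 2. The counting steps were run on simulated data with known changes. The noise added there was the same for every probe and below that of repeat spots at low signals, with no differences between pools. The simulation therefore checks the counting and not the reliability of the counts in these data. The alternatives were 11 changes of background correction, scaling, filter, spots kept, probe choice and threshold, and normexp without an offset was added after seeing the data. The normexp correction was run on the median signal of a spot. Python 3.11.15, numpy 2.4.6, pandas 2.3.3, matplotlib 3.10.9, R 4.3.3 and limma 3.58.1 were used.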

Additional observations from a re-analysis of the deposited data

How the results depend on the processing

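No paired analysis was possible because each diet had 1 array, and leaving out an array leaves no comparison. Aqp1, Aqp3, Trpv4 and Trpm2, and the relatives Piezo2, Lrrc8c, Ttyh2 and Kcnn4, kept their direction under each alternative that gave them a value. The count of channel genes at least 1.5-fold lower was 4, and it was 1 (Trpv4) with normexp and an offset of 50 and 2 with a 2-fold threshold. Among all genes the lower counts were 1682, 655 and 681, in the same order of settings. The offset of 50 pulls fold changes towards 0 by construction, most strongly for signals below it. Scaling comes after this step, and Aqp9, near 0, was at 0.096 with the offset and 0.078 without it. With normexp and no offset, Aqp1 and Aqp3 were past 1.5-fold and Trpm2 was not.

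Of the relatives, the count of higher genes was 1 with normexp, 1 when a probe had to be well above background on both arrays and 6 with no filter on dim probes. The count of lower relatives was 1 with normexp, 4 with quantile normalization, 4 with cyclic loess, 4 when the probes of a gene were summarised by their median and 1 with a 2-fold threshold. Over all genes, 1609 were higher and 1682 lower, which became 625 and 655 with normexp and 428 and 681 with a 2-fold threshold. These counts were 2903 and 2212 with no filter, and 1344 and 1434 with detection on both arrays. They were 1382 and 1835 with quantile normalization, 1244 and 1991 with cyclic loess, and 1569 and 1603 with the median over probes. Of the calls over all genes 48.9% were higher, or 38.5% with cyclic loess and 56.8% with no filter on dim probes. The median of the channel genes lay between −0.24 and −0.14 under the alternatives. The signals of Aqp1 and Aqp9 near background limit what can be said of them, and no value here carries an error between mice.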

Other observations

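Trpm1, a channel of melanocytes and retinal cells, had 1 probe with signals of 3219.6 and 4042 and 2 probes not well above background on either array. It was chosen here after its values were seen.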
